A study of Mus musculus with 9 samples.

Results

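The genes described are Kmt2a and 9 partners of the KMT2A-MLLT1 fusion protein: Mllt1, Mllt3, Men1, Psip1, Dot1l, Aff1, Aff4, Cdk9 and Ell. They were taken by symbol, 10 of the 21159 Ensembl genes in the deposited count table, each with 1 row, and all 10 passed the filter on low counts. Messenger RNA was measured by QuantSeq, a 3' tag method that primes each read near the end of a transcript, in 9 libraries from mouse bone marrow cells. All 3 groups, of 3 libraries each, came from lineage-depleted marrow of Runx2fl/fl CreERT2tg/+ animals, that is with floxed Runx2 and a tamoxifen-activated Cre. Runx2ko cells had been transformed by a KMT2A-MLLT1-eGFP retrovirus and given 4-hydroxytamoxifen (4-OHT) at 400 nM over 24 hours; Runx2wt cells had been transformed likewise and given ethanol. BM progenitor RNA came from the methylcellulose culture before its first replating, with no treatment, and the labels do not settle whether those cells carried the virus. Replating was at intervals of 7 days, and transformed cells were taken after the second replating, from suspension culture. For all 9 libraries the labels give culture with the cytokines IL-3 and IL-6 at 10 ng/ml each and SCF at 50 ng/ml. Culture form, passage, transformation and treatment with ethanol or 4-OHT therefore go together against BM progenitor and cannot be told apart. The same holds for 4-OHT, Cre activity and loss of Runx2 between Runx2ko and Runx2wt. In Runx2ko against BM progenitor, all of these go together. The labels call the replicates biologically independent without naming animals, ages or clones.

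KMT2A (MLL1) is a histone H3 lysine methyltransferase that keeps developmental genes such as the Hoxa cluster active. In leukaemia a chromosomal break joins its N-terminal part, which holds the contact to menin and LEDGF (the Psip1 product) and a CXXC domain for unmethylated CpG, to a partner such as ENL (MLLT1). ENL and its paralog AF9 (MLLT3) read acylated histones through a YEATS domain and bring 2 machineries to the fusion's target genes, the DOT1L methyltransferase of histone H3 lysine 79 and the super elongation complex, in which AFF1 or AFF4 is the scaffold for ELL and for the kinase CDK9, which releases paused RNA polymerase II. Men1, Dot1l and Mllt1 are known as dependencies of such leukaemias.

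Library totals ran from 3118594 to 5348177 counts, of which the 10 genes took 2334 to 4171. Values are CPM, counts scaled by TMM library size. Runx2ko replicate 1 stood apart: across genes its log2 CPM correlated at 0.793 to 0.816 with the other transformed libraries, which correlated at 0.934 to 0.959 with each other. Its 10 mast cell and basophil markers summed to 3730 CPM, against 44.0 and 474.3 CPM in the other Runx2ko libraries, 71.5 to 308.8 CPM in Runx2wt and 852.4 to 940.7 CPM in BM progenitor. Its 9 monocyte and macrophage markers summed to 145.2 CPM, against 386.1 and 652.9 CPM in the other Runx2ko libraries, 485.8 to 857.2 CPM in Runx2wt and 350.4 to 442.4 CPM in BM progenitor. Its 7 erythroid and megakaryocyte markers summed to 768.5 CPM, against 32.9 and 42.8 CPM in the other Runx2ko libraries, 8.84 to 60.9 CPM in Runx2wt and 67.3 to 75.5 CPM in BM progenitor. The part of these cells in any result was not tested, and results with and without that library are given. Markers of another cell type moved with the comparisons to BM progenitor: 8 eosinophil markers summed to 18.1, 8.75 and 10.8 CPM in Runx2ko and 2.49 to 4.52 CPM in Runx2wt, against 1377 to 1839 CPM in BM progenitor. Of these markers Epx, Ear1, Ear2 and Ccr3 had no count in any Runx2wt library, and all 8 had counts in Runx2ko and in BM progenitor. The 7 progenitor and leukocyte markers (Ptprc, Kit, Cd34, Cd48, Spi1, Flt3 and Myb) summed to 907.6 to 1489 CPM in Runx2ko, 995.2 to 1408 CPM in Runx2wt and 1018 to 1155 CPM in BM progenitor. The 10 T cell markers summed to at most 43.6 CPM in any library, although the label on RNA extraction speaks of T-ALL cells. Runx2, the gene the design targets, had 21.0, 120.1 and 134.7 CPM in the Runx2ko libraries, against 159.4, 178.8 and 131.0 CPM in those of Runx2wt. Because 3' tags may lie outside the floxed part, these levels do not check the deletion.

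Among the fusion's own genes, Kmt2a rose in transformed cells, while Mllt1 was lower without passing the test. Kmt2a (ENSMUSG00000002028, GRCm38 chromosome 9, 44803355 to 44881296, minus strand) had 270.7, 311.1 and 433.9 CPM in the Runx2ko libraries. Its levels were 382.7, 426.5 and 260.1 CPM in Runx2wt, against 130.7, 161.9 and 140.0 CPM in BM progenitor. Every transformed library lay above every BM progenitor library, and the Runx2ko and Runx2wt ranges overlapped. The log2 fold change was 1.31 for Runx2wt against BM progenitor (SE 0.24, 95% interval 0.78 to 1.84, edgeR adjusted p = 0.0113), a fold of 2.47. For Runx2ko against BM progenitor it was 1.23 (SE 0.24, edgeR adjusted p = 0.0117), a fold of 2.35, and both comparisons use the same BM progenitor libraries. Summed eosinophil markers, at most 18.1 CPM in a transformed library against at least 1377 CPM in BM progenitor, moved along with these and all further changes against BM progenitor, and their part in them was not tested. In bulk libraries, more cells with a transcript and more transcript per cell cannot be told apart. Without Runx2ko replicate 1 the Kmt2a changes were 1.3 and 1.37 log2 units (edgeR adjusted p = 0.00105 and 0.00149). Both calls were lost without BM progenitor replicate 1 (adjusted p = 0.0594 for Runx2wt and 0.0573 for Runx2ko) or replicate 3 (0.0696 and 0.0626), at log2 fold changes of 1.16 to 1.26. No other annotated gene has an exon in the last 1000 bases of Kmt2a, where 3' tags are primed. A count per gene does not show whether the retroviral transcript, which carries parts of both genes, added to the counts of Kmt2a or Mllt1.

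Mllt1 (ENSMUSG00000024212, chromosome 17, 56892611 to 56935415, minus strand), which encodes ENL, had 15.2, 10.3 and 4.88 CPM in the Runx2ko libraries. Its levels in Runx2wt were 13.0, 8.87 and 6.12 CPM, against 17.3, 18.3 and 21.0 CPM in BM progenitor. All 6 transformed libraries lay below all 3 BM progenitor libraries. The log2 fold change was -1.01 for Runx2wt (SE 0.42, 95% interval -1.95 to -0.07, edgeR adjusted p = 0.134) and -0.91 for Runx2ko (SE 0.42, edgeR adjusted p = 0.165), neither past the threshold of 0.05. Without Runx2ko replicate 1, whose 15.2 CPM was the highest of the transformed libraries, Mllt1 fell in Runx2ko by 1.29 log2 units (edgeR adjusted p = 0.034) and its change in Runx2wt still missed (-1.0, adjusted p = 0.0528). Without Runx2ko replicate 3, the lowest, the Runx2ko change was -0.58 (adjusted p = 0.323). With the Runx2wt and BM progenitor libraries alone, the Runx2wt change passed (-0.99, edgeR adjusted p = 0.0307), in 1 of 17 alternatives. These values rest on 18 to 99 counts per library.

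Mllt3 (ENSMUSG00000028496, chromosome 4, 87769925 to 88033364, minus strand), which encodes AF9, was the least abundant of the 10 genes. The Runx2ko libraries had 9.70, 1.71 and 3.25 CPM, replicate 1 being the highest and replicate 2 the lowest of all 9 libraries. Runx2wt had 3.57, 2.49 and 2.23 CPM, against 6.93, 3.24 and 6.37 CPM in BM progenitor. With 8 to 38 counts per library, counting error alone gives Runx2ko replicate 1 an exact 95% Poisson interval of 6.55 to 13.9 CPM and BM progenitor replicate 2, at 3.24 CPM, one of 1.67 to 5.65 CPM. Log2 fold changes of -0.98 in Runx2wt (SE 0.64, edgeR adjusted p = 0.319) and -0.21 in Runx2ko (SE 0.63, edgeR adjusted p = 0.846) did not pass, the second being -1.19 without Runx2ko replicate 1 (edgeR adjusted p = 0.142).

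Of the pair that anchors the fusion to chromatin, Men1 fell in both transformed groups. Men1 (ENSMUSG00000024947, chromosome 19, 6334979 to 6340891, plus strand) encodes menin, the scaffold that binds the KMT2A N-terminus and the target of menin inhibitors. Levels in Runx2ko were 43.7, 46.8 and 35.8 CPM. In Runx2wt they were 41.2, 35.2 and 36.2 CPM, against 75.7, 61.5 and 62.7 CPM in BM progenitor. No transformed library reached the lowest BM progenitor library. The log2 fold change was -0.83 in Runx2wt (SE 0.18, 95% interval -1.23 to -0.43, edgeR adjusted p = 0.0199) and -0.66 in Runx2ko (SE 0.18, 95% interval -1.06 to -0.26, edgeR adjusted p = 0.034). With Runx2ko replicate 1 left out these were -0.83 and -0.69 (edgeR adjusted p = 0.00605 and 0.025). Men1 missed the threshold in Runx2wt when any 1 BM progenitor library was dropped (adjusted p = 0.0852, 0.0675 and 0.0632 for replicates 1, 2 and 3), and when Runx2wt replicate 2 (0.0841) or 3 (0.0571) was. In Runx2ko it missed without each BM progenitor library in turn (0.128, 0.0861 and 0.0753 in the same order), Runx2wt replicate 2 (0.0521) or Runx2ko replicate 3 (0.0787).

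Psip1 (ENSMUSG00000028484, chromosome 4, 83455680 to 83486459, minus strand) encodes LEDGF, which with menin tethers KMT2A to chromatin marked on histone H3 lysine 36. Runx2ko libraries had 71.2, 36.5 and 17.6 CPM. Those of Runx2wt had 43.3, 31.9 and 24.5 CPM, against 62.8, 62.3 and 65.6 CPM in BM progenitor. Runx2ko replicate 1 lay above every BM progenitor library and replicate 3 below every other library. The Runx2wt and BM progenitor groups did not overlap, but the log2 fold change of -0.93 did not pass (SE 0.42, edgeR adjusted p = 0.162), nor did that of -0.61 in Runx2ko (SE 0.42, edgeR adjusted p = 0.341). Psip1 fell, once Runx2ko replicate 1 was left out, by 0.93 log2 units in Runx2wt (edgeR adjusted p = 0.0246) and by 1.22 in Runx2ko (edgeR adjusted p = 0.0144). Without Runx2ko replicate 3 the Runx2ko change was instead -0.25 (edgeR adjusted p = 0.64). The spread of its log2 CPM within a group was an SD of 0.99 in Runx2ko and 0.41 in Runx2wt, against 0.04 in BM progenitor. Psip1 overlaps Snapc3 on the opposite strand, with no Snapc3 exon in the last 1000 bases of Psip1, and the strand setting used in counting is not known from the labels.

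Dot1l (ENSMUSG00000061589, chromosome 10, 80755206 to 80795461, plus strand), the methyltransferase that ENL and AF9 recruit, did not differ beyond its spread. Runx2ko had 129.1, 108.1 and 91.1 CPM. Runx2wt had 86.4, 80.4 and 123.5 CPM, against 110.8, 124.9 and 112.8 CPM in BM progenitor, and all 3 ranges overlapped. The log2 fold changes were -0.26 in Runx2wt (95% interval -0.72 to 0.19, edgeR adjusted p = 0.402) and -0.09 in Runx2ko (95% interval -0.54 to 0.37, edgeR adjusted p = 0.803). The Runx2wt interval thus leaves room for a moderate fall but only a small rise, and the Runx2ko interval for a moderate difference either way.

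In the super elongation complex, the scaffold gene Aff1 rose in Runx2wt, and its paralog Aff4 did not follow it there. Aff1 (ENSMUSG00000029313, chromosome 5, 103692374 to 103855322, plus strand), whose human counterpart AFF1 (AF4) is itself a common KMT2A fusion partner, had 62.8, 79.5 and 80.2 CPM in the Runx2ko libraries. Runx2wt libraries had 86.7, 94.5 and 75.7 CPM, against 56.2, 48.3 and 45.9 CPM in BM progenitor. All transformed libraries lay above all BM progenitor libraries. The log2 fold change was 0.77 in Runx2wt (SE 0.17, 95% interval 0.38 to 1.16, edgeR adjusted p = 0.0231), and that of 0.57 in Runx2ko just missed the threshold (SE 0.17, 95% interval 0.17 to 0.96, edgeR adjusted p = 0.053). It passed in both without Runx2ko replicate 1 (0.77 and 0.67 log2 units, edgeR adjusted p = 0.00558 and 0.0178). Aff1 missed the threshold in Runx2wt when BM progenitor replicate 1 (adjusted p = 0.0623), 2 (0.102) or 3 (0.116) was dropped, and when Runx2wt replicate 1 (0.0635) or 2 (0.0912) was.

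Aff4 (ENSMUSG00000049470, chromosome 11, 53350833 to 53421830, plus strand), the other scaffold, had 119.4, 66.8 and 107.6 CPM in the Runx2ko libraries, with replicates 1 and 3 above all other libraries of the study and replicate 2 among them. Runx2wt had 61.9, 64.0 and 77.6 CPM, against 64.2, 75.0 and 59.7 CPM in BM progenitor, and these ranges overlapped. Its log2 fold changes were 0.03 for Runx2wt against BM progenitor (95% interval -0.48 to 0.55, edgeR adjusted p = 0.939), 0.53 for Runx2ko against Runx2wt (95% interval 0.01 to 1.04, edgeR adjusted p = 0.612) and 0.56 for Runx2ko against BM progenitor (95% interval 0.05 to 1.08, edgeR adjusted p = 0.12). Aff4 passed in the last of these without Runx2ko replicate 2 (0.77, edgeR adjusted p = 0.0286).

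Ell (ENSMUSG00000070002, chromosome 8, 70539457 to 70592858, plus strand) encodes an elongation factor that keeps RNA polymerase II from pausing, and its human counterpart is another fusion partner. It was at 70.2, 55.4 and 60.2 CPM in Runx2ko, 34.4, 53.2 and 53.7 CPM in Runx2wt and 41.8, 43.7 and 42.3 CPM in BM progenitor. The Runx2ko libraries lay above all libraries of both other groups. No comparison of Ell passed: the log2 fold changes were 0.14 for Runx2wt against BM progenitor (SE 0.21, edgeR adjusted p = 0.667), 0.40 for Runx2ko against Runx2wt (SE 0.20, edgeR adjusted p = 0.669) and 0.54 for Runx2ko against BM progenitor (SE 0.21, edgeR adjusted p = 0.0991). Cdk9 (ENSMUSG00000009555, chromosome 2, 32705784 to 32713076, minus strand), the kinase of the positive elongation factor P-TEFb, had 27.8, 32.9 and 33.3 CPM in the Runx2ko libraries. Runx2wt had 31.6, 38.0 and 32.8 CPM, against 24.3, 30.5 and 35.3 CPM in BM progenitor. Its 3 groups overlapped, and all 3 of its intervals lay between -0.57 and 0.63 log2 units.

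**Figure D1:**
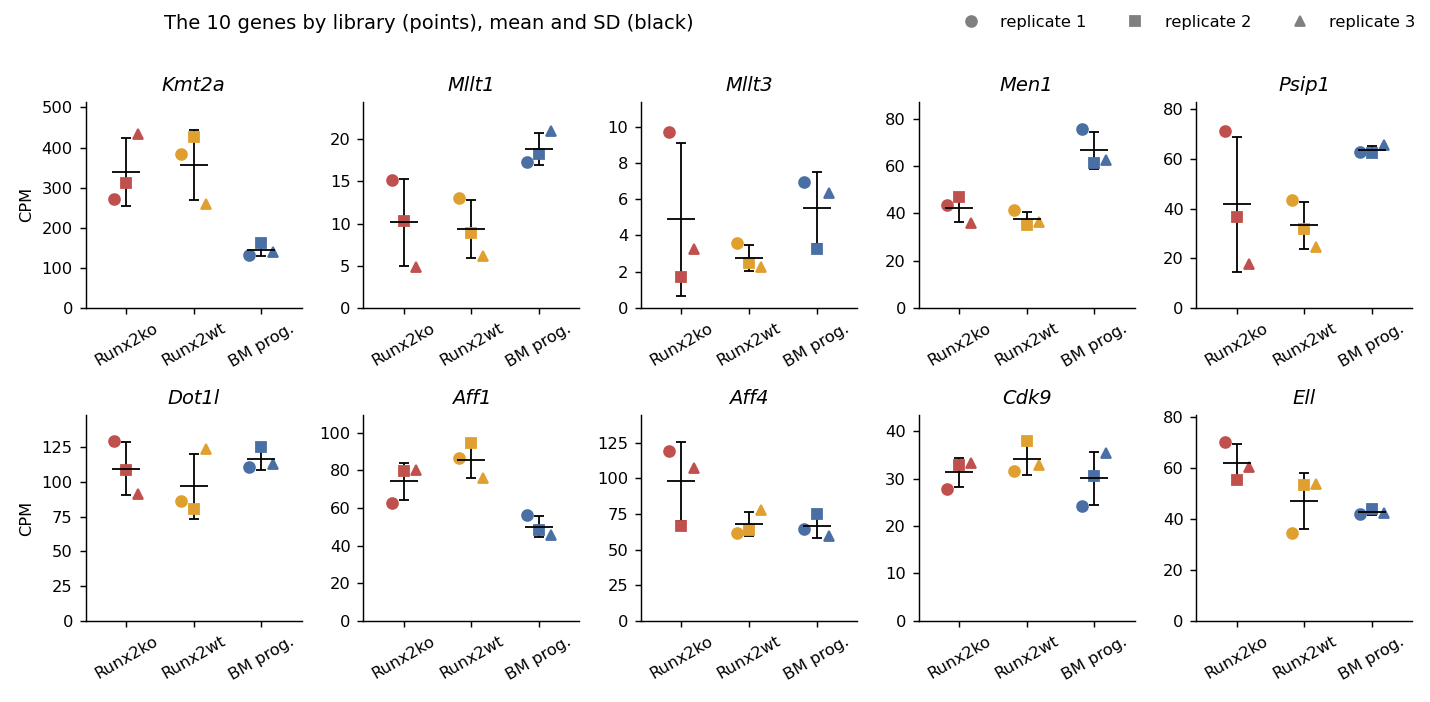
CPM of the 10 genes in each library (points, shaped by replicate number), with the group mean and SD (black, n = 3), for Runx2ko, Runx2wt and BM progenitor (BM prog.) from left to right; each panel has its own axis from 0. Kmt2a and Aff1 stand higher, and Men1 and Mllt1 lower, in all 6 transformed libraries than in the 3 BM progenitor libraries, while Psip1, Mllt1 and Mllt3 spread widest in Runx2ko.

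Counted over the 10 genes, 2 rose and 1 fell in Runx2wt against BM progenitor, where 13.5% of 11196 tested genes passed (8.28% higher and 5.23% lower). In Runx2ko against BM progenitor 1 rose and 1 fell, where 17.2% of tested genes passed (10.0% higher and 7.14% lower). Groups did not overlap for 5 of the 10 genes in Runx2wt against BM progenitor (Kmt2a, Aff1, Men1, Mllt1 and Psip1), beside 49.3% of tested genes, a share near that of all genes. They did not overlap for 5 in Runx2ko against BM progenitor, beside 38.4%. The median log2 fold change of the 10 genes was -0.12 in Runx2wt and -0.01 in Runx2ko, beside medians of 0.01 and 0.07 over all tested genes, so the group as a whole had no common direction. Without Runx2ko replicate 1, 2 rose and 2 fell in Runx2wt, where 28.0% of genes passed, and 2 rose and 3 fell in Runx2ko, where 28.5% passed. The number that passed was 0 without BM progenitor replicates 1 or 3 in both comparisons, and 1, Kmt2a, without BM progenitor replicate 2. It was also 1 without Runx2wt replicate 2 in both comparisons and without Runx2ko replicate 3 in the second.

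**Figure D2:**
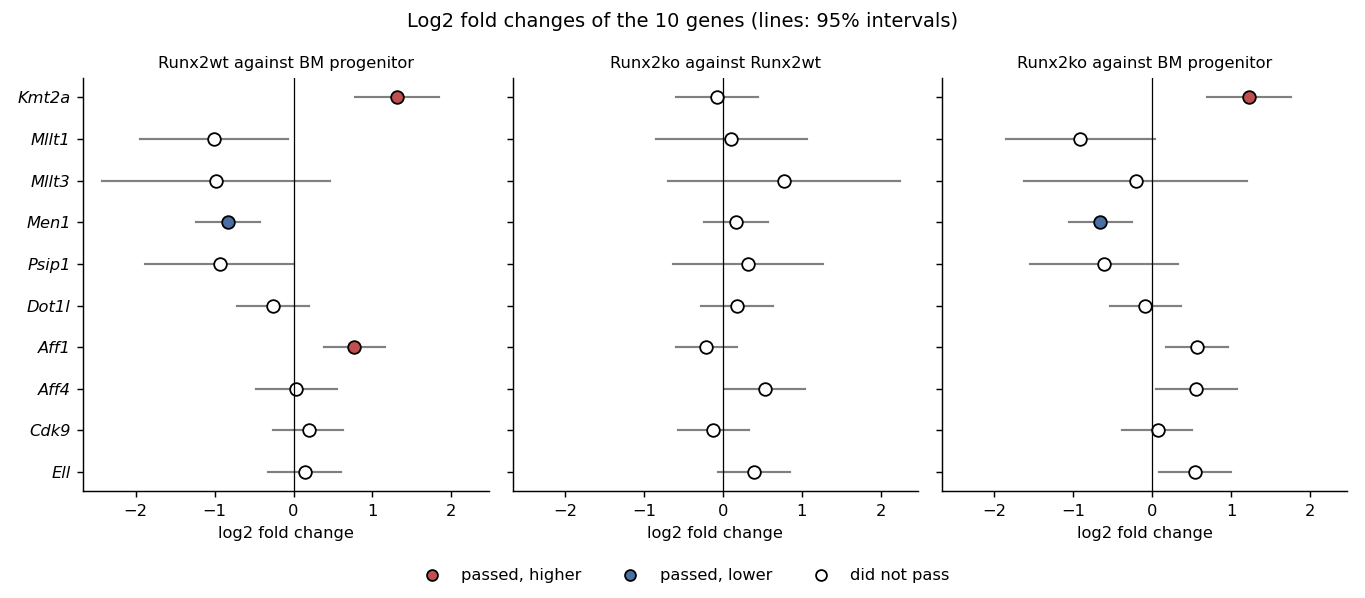
Log2 fold changes of the 10 genes in the 3 comparisons (points), with unadjusted 95% intervals (lines) from the edgeR fit of all 9 libraries; filled points passed at an adjusted p under 0.05. Kmt2a lies to the right and Men1 to the left of 0 in both comparisons with BM progenitor, and no point is filled for Runx2ko against Runx2wt.

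The comparison of Runx2ko with Runx2wt asks whether the fusion's partners change when Runx2 is targeted in transformed cells. None of the 10 genes passed with edgeR, as for 0.0% of 11196 tested genes, and 1, Aff4, had an unadjusted p under 0.05, as did 7.91% of all tested genes. DESeq2, which called 46 genes in all (0.411%), and limma-voom also called none of the 10. Only Ell had groups that did not overlap, beside 9.68% of tested genes. The log2 fold changes ran from -0.21 for Aff1 (95% interval -0.60 to 0.18) to 0.77 for Mllt3 (95% interval -0.69 to 2.24). For Kmt2a the interval was -0.60 to 0.45 and for Men1 -0.24 to 0.57. These intervals bound the larger changes for Kmt2a, Men1, Aff1, Dot1l and Cdk9 but are wide for Mllt1 (-0.85 to 1.06) and Psip1 (-0.63 to 1.27), where Runx2ko replicate 1 was high. Without that library the signs of Kmt2a, Mllt1, Mllt3 and Psip1 turned, at 0.06, -0.29, -0.20 and -0.29 log2 units, and none passed, beside 0.043% of all tested genes that did (edgeR adjusted p = 0.877 to 0.975).

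**Figure D3:**
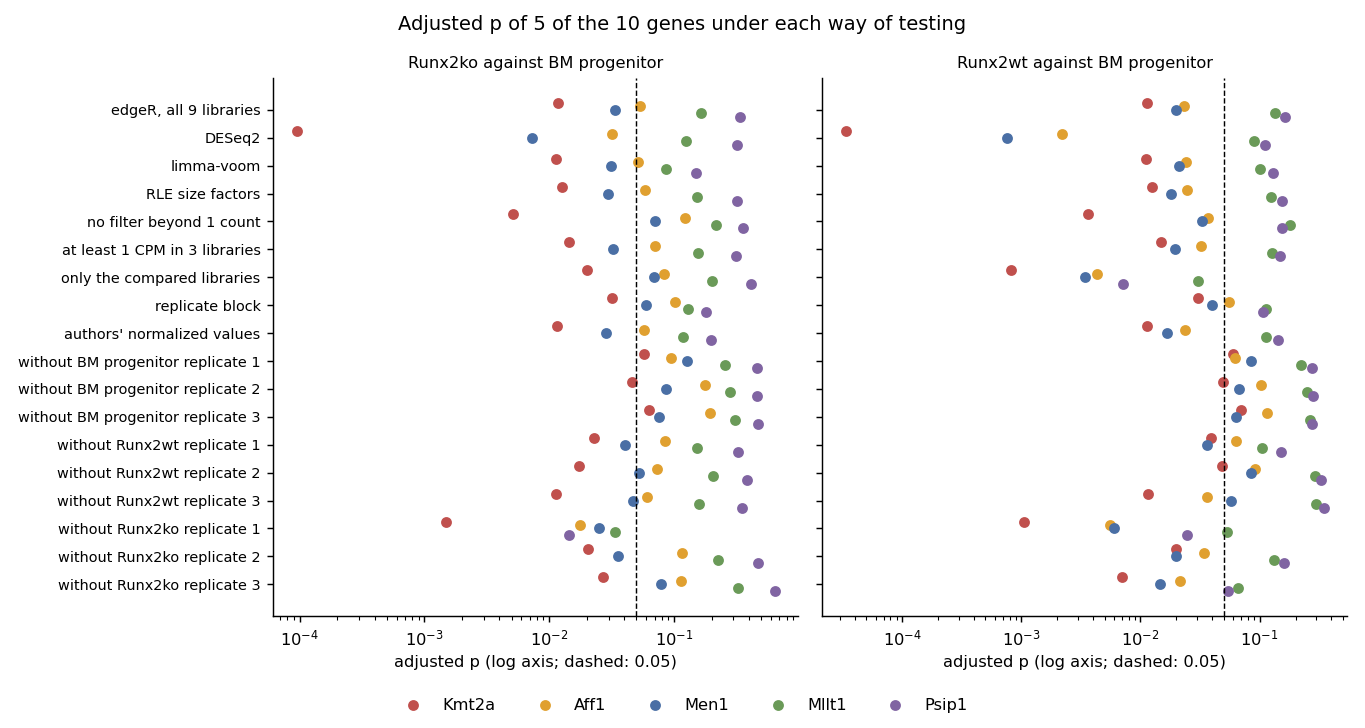
Adjusted p on a log axis for Kmt2a, Aff1, Men1, Mllt1 and Psip1 (colours) under each way of testing (rows), for Runx2ko (left) and Runx2wt (right) against BM progenitor; the dashed line is 0.05. Kmt2a stays left of the line under 15 of 17 alternatives in each comparison, and Psip1 crosses it when Runx2ko replicate 1 is left out. Mllt1 then crosses it too, but for Runx2ko only. For Runx2wt, Psip1 and Mllt1 also cross it in the compared libraries alone.

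Because a 3' tag is counted once per transcript whatever its length, CPM of different genes can be set side by side with care for how well each end is primed. Kmt2a was the most abundant of the 10 in all groups, with means of 338.6 ± 85.0 CPM (Runx2ko), 356.4 ± 86.2 CPM (Runx2wt) and 144.2 ± 16 CPM (BM progenitor), each with its SD over 3 libraries. Dot1l came second, and Mllt1 and Mllt3 stood last in all 3 groups. In BM progenitor the order between them was Men1, Aff4, Psip1, Aff1, Ell and Cdk9, of which Men1, Aff4 and Psip1 overlapped as neighbours. In Runx2wt it was Aff1, Aff4, Ell, Men1, Cdk9 and Psip1, with Dot1l and Aff1, Aff1 and Aff4, and each neighbour from Ell to Psip1 overlapping. Within a library, the ratio of Kmt2a to Men1 was 6.20, 6.65 and 12.1 in Runx2ko and 9.29, 12.1 and 7.19 in Runx2wt, against 1.73, 2.63 and 2.23 in BM progenitor. The ratio of Kmt2a to Mllt1 was 17.8, 30.3 and 88.9 in Runx2ko and 29.5, 48.1 and 42.5 in Runx2wt, against 7.54, 8.82 and 6.66 in BM progenitor. Both ratios were higher in each transformed library than in any BM progenitor library. This had to follow from the levels of Kmt2a, Men1 and Mllt1 given above, which each separated these libraries. The ratios are thus a description and no further result. The ratio of Aff1 to Aff4 was 0.526, 1.19 and 0.746 in Runx2ko, with replicate 1 the lowest of all 9 libraries. It was 1.40, 1.48 and 0.975 in Runx2wt, against 0.875, 0.644 and 0.769 in BM progenitor.

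The promoters of the 3 genes that passed in a comparison are shown because the CXXC domain kept in the fusion binds unmethylated CpG, and because RUNX factors bind the letters TGTGGT. The sequences are from RefSeq on GRCm38.p6, 250 bases before to 50 after a transcript start, with each CpG in capitals. Where that table lists several starts, as for Aff1 and Men1, the one farthest upstream among them was taken; for Aff1 it lies inside the GENCODE gene, downstream of its annotated 5′ end, so the letters do not describe that end.
Kmt2a, chr9:44881240-44881539, minus strand: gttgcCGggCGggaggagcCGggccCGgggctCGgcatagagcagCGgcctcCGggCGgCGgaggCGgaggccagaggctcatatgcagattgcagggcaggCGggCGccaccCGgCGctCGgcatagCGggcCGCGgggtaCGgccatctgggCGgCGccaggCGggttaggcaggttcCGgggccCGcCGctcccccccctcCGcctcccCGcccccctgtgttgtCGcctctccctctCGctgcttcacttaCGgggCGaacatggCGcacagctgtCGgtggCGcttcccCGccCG
Aff1, chr5:103753912-103754211, plus strand: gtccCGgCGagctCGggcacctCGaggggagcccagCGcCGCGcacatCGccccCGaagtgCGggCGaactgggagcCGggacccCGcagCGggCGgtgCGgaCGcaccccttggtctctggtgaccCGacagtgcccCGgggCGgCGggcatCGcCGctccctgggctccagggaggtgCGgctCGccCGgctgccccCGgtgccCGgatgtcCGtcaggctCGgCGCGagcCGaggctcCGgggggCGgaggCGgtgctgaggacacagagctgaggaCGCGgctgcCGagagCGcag
Men1, chr19:6334729-6335028, plus strand: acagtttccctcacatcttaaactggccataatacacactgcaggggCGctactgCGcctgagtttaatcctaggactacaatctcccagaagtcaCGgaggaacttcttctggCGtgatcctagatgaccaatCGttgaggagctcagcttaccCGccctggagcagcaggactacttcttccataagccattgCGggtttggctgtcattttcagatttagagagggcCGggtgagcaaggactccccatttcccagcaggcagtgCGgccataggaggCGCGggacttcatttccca
The Kmt2a promoter held 36 CpG, and 6.03% of the 27025 promoters searched, 1 a gene, held as many or more. Aff1 held 40 (3.79%) and Men1 held 11 (41.9%), beside a median of 7 over all promoters. These promoters were not limited to genes tested here, so the shares do not set the members beside other expressed genes. Of the other members, 6 had an entry: Dot1l held 49, Mllt1 46, Aff4 44, Cdk9 39, and Mllt3 and Ell 29 each. TGTGGT was found on neither strand in the 9 members with an entry, and 16.9% of all promoters hold it on either strand. A match or its absence in 300 bases describes these letters only.

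Further genes of the same machinery moved singly. The 7 lists drawn up for it hold 65 genes, of which 62 were tested: 1 rose and 2 fell in Runx2wt against BM progenitor, and 6 rose and 3 fell in Runx2ko. Over all tested genes 13.5% passed in Runx2wt, a larger share than of the lists, and 17.2% in Runx2ko, a share near theirs. The median log2 fold change of the list genes was -0.02 in Runx2wt and 0.09 in Runx2ko, beside 0.01 and 0.07 over all tested genes. List medians in Runx2wt ran from -0.49 for the 2 genes of the DOT1L complex to 0.25 for the 4 genes of the 7SK particle. In Runx2ko they ran from -0.36 for the DOT1L complex to 0.71 for the 5 other super elongation complex genes. That 0.71 is the value of Ccnt2, which is the middle one only with Aff3 (1.09) counted above it. Of the Runx2ko libraries, Aff3 was high in replicate 1 alone, and without that library its change was -4.27. In Runx2ko against Runx2wt 0 of 62 passed with edgeR, DESeq2 and limma-voom, and 9 had an unadjusted p under 0.05, beside 7.91% of all tested genes. Without Runx2ko replicate 1, 4 rose and 10 fell in Runx2wt and 7 rose and 7 fell in Runx2ko, beside 28.0% and 28.5% of all tested genes that passed in those fits. Without BM progenitor replicates 1, 2 or 3, 1 gene passed in Runx2wt and 0 in Runx2ko, and the number in Runx2wt was 1 without Runx2wt replicate 3 and 5 without Runx2ko replicate 2, and that in Runx2ko was 5 without Runx2ko replicate 3.

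Of the 15 pausing and elongation factors, Nelfa, a subunit of the negative elongation factor NELF that holds paused polymerase, fell in both. Runx2ko had 81.8, 78.8 and 89.7 CPM and Runx2wt 72.8, 57.9 and 55.6 CPM, against 142.9, 141.3 and 140.0 CPM in BM progenitor. The log2 fold changes were -0.76 in Runx2ko (SE 0.15, edgeR adjusted p = 0.0143) and -1.18 in Runx2wt (SE 0.16, edgeR adjusted p = 0.00344), the second of which passed under all 17 alternatives. Of the 4 genes of the 7SK particle, which holds P-TEFb inactive, Larp7, which stabilises 7SK RNA, fell by 1.0 log2 units in Runx2wt and by 0.95 in Runx2ko (edgeR adjusted p = 0.0222 and 0.0216). Larp7 had 85.4, 67.2 and 50.7 CPM in the Runx2ko libraries. It was at 79.6, 61.8 and 54.8 CPM in Runx2wt and 130.5, 142.4 and 120.0 CPM in BM progenitor, and its Runx2wt call was lost without Runx2wt replicates 2 or 3 (adjusted p = 0.0873 and 0.0665). Hexim2, an inhibitor of P-TEFb held by 7SK, rose in Runx2ko, at 5.50, 6.09 and 5.15 CPM, with 2.63, 3.05 and 2.23 CPM in Runx2wt, against 1.46, 1.62 and 1.27 CPM in BM progenitor (log2 fold change 1.93, SE 0.41, edgeR adjusted p = 0.0167). Runx2wt lay between the other groups and did not pass (edgeR adjusted p = 0.195). With the Runx2wt and BM progenitor libraries alone, Hexim2 did not pass the filter on low counts. Hexim2 thus entered the test through Runx2ko, the group where it is high, and its call is not independent of that filter.

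Of the 15 other KMT2 and COMPASS genes, Ash2l, a core subunit shared by all KMT2 complexes, rose. It was at 234.8, 184.9 and 261.2 CPM in Runx2wt and 139.1, 250.2 and 244.5 CPM in Runx2ko, against 116.4, 101.7 and 102.8 CPM in BM progenitor. The log2 fold changes were 1.08 and 0.98 (SE 0.24 each, edgeR adjusted p = 0.021 and 0.0238). These calls were lost without Runx2wt replicates 1 or 3 in Runx2wt (adjusted p = 0.06 and 0.0622) and without Runx2ko replicates 2 or 3 in Runx2ko (0.0631 and 0.0621). Dpy30, another core subunit, fell by 0.74 log2 units in Runx2ko (edgeR adjusted p = 0.0287), and Kmt2c, which encodes a methyltransferase of enhancers, rose by 0.74 (edgeR adjusted p = 0.0391), a call lost without Runx2ko replicate 1 (0.55, adjusted p = 0.0551). This Kmt2c call held in only 7 of the 17 alternatives. Ccnt2, the cyclin T2 partner of Cdk9, rose by 0.71 log2 units in Runx2ko, at 146.2, 151.5 and 140.9 CPM against 78.6, 94.1 and 94.5 CPM in BM progenitor (edgeR adjusted p = 0.0223). Among the other KMT2A fusion partner genes Foxo3 and Foxo4, forkhead transcription factors, rose in Runx2ko by 0.84 and 0.92 log2 units (edgeR adjusted p = 0.0129 and 0.0479), and Foxo4 passed in only 3 of the 17 alternatives. Dpy30 also missed without Runx2ko replicate 3 (adjusted p = 0.0713). Each Runx2ko call of Nelfa, Larp7, Hexim2, Ash2l, Dpy30, Kmt2c, Ccnt2, Foxo3 and Foxo4 was lost without any 1 of the 3 BM progenitor libraries, as were the Runx2wt calls of Larp7 and Ash2l. Where none of a list passed, the most abundant gene was Mllt10 for the DOT1L complex and Polr2a, the catalytic subunit of RNA polymerase II, for the polymerase and its kinases. Mllt10 had log2 fold changes of 0.11 in Runx2wt and 0.29 in Runx2ko against BM progenitor, and Polr2a of 0.13 and 0.18. The medians under 0 of the DOT1L complex thus came from its other gene, which was lower in both comparisons and did not pass.

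**Figure D4:**
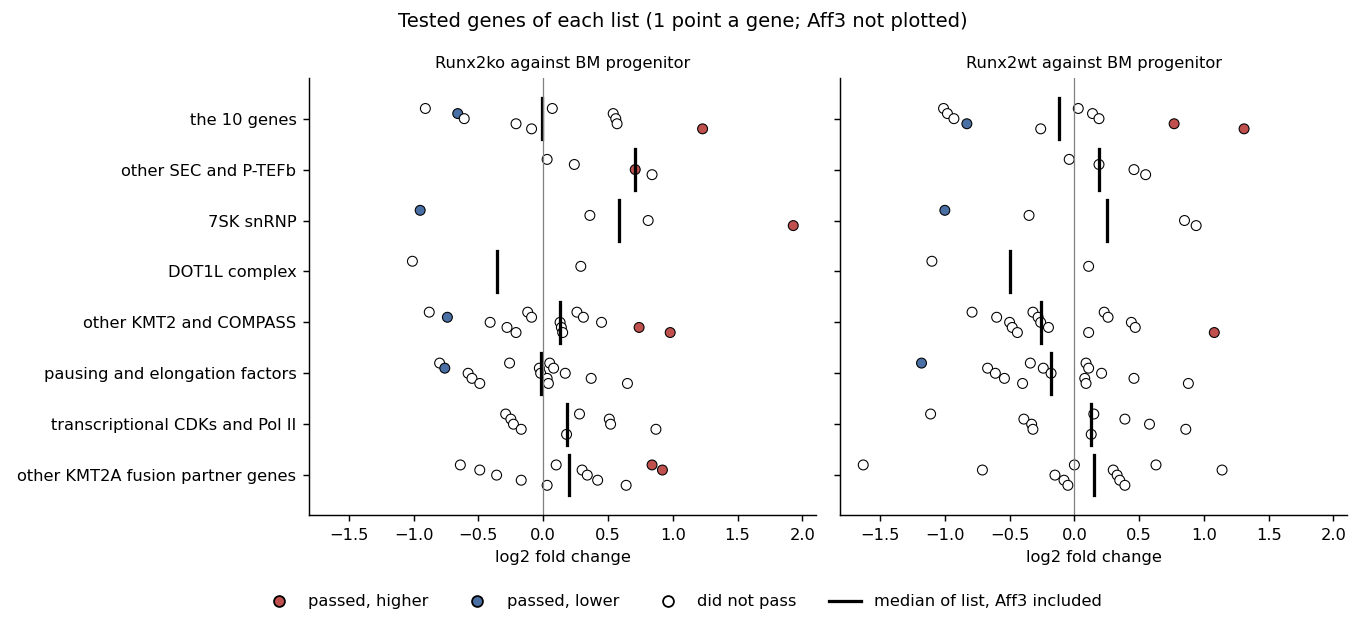
Log2 fold changes against BM progenitor of the tested genes of each list (1 point a gene) for Runx2ko (left) and Runx2wt (right), with the 10 genes on top and the median of the list, Aff3 included (black line); filled points passed at an adjusted p under 0.05. Below the top row 9 points are filled for Runx2ko and 3 for Runx2wt, and Aff3, with 1 count over the 3 Runx2wt libraries, is not plotted.

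Aff3, the third AFF paralog of these lists, is named after its values were seen, since it passed in no comparison. Runx2ko had 96.7, 1.14 and 0.271 CPM, so that replicate 1, with its high mast cell markers, was the highest of the study and replicates 2 and 3 stood below every BM progenitor library. Whether those cells account for it was not tested. Runx2wt had 0, 0 and 0.278 CPM, against 13.7, 15.4 and 16.4 CPM in BM progenitor, from 1 count in Runx2wt and 209 in BM progenitor. The ratio of the summed counts, scaled by library size, was 0.00531 in Runx2wt over BM progenitor, with an exact 95% interval of 0.00013 to 0.0299 that covers counting error only. With edgeR the adjusted p was 0.0734 for Runx2wt and 0.61 for Runx2ko against BM progenitor, and without Runx2ko replicate 1 it was 9.27e-05 and 0.000964.

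The genes whose log2 CPM followed Kmt2a most closely over the 9 libraries, of 8357 tested genes with a mean of at least 10 CPM, were Man2b1 (Pearson r = 0.982), a lysosomal alpha-mannosidase, Dcun1d1 (0.978), which promotes attachment of NEDD8 to cullins, and Baz2b (0.976), which encodes a bromodomain protein. All 3 were higher in every transformed library than in any BM progenitor library. They were picked for following Kmt2a, which separated these libraries itself, so their separation is no further result. Over all tested genes, groups did not overlap for 49.3% in Runx2wt and 38.4% in Runx2ko against BM progenitor. Baz2b ran from 297.1 to 631.9 CPM in transformed cells against 79.2 to 109.5 CPM in BM progenitor. Those closest to Mllt1 were Smarca5 (0.994), the motor of ISWI chromatin remodellers, Pde12 (0.975), a mitochondrial phosphodiesterase that trims poly(A), and Psip1 (0.972). Mllt1 and Psip1 shared their order in Runx2ko, highest in replicate 1 and lowest in replicate 3. These correlations describe likeness over 9 libraries that fall into 3 groups and carry no test.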

How the data were processed

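RNA from 9 libraries was made with a QuantSeq 3' kit, per the labels' protocols. The submitters' processing notes name FastQC, STAR, DESeq2 and the build GRCm38; they give no counting program and no strand setting. Raw counts for each Ensembl gene were deposited by the authors, with 3118594 to 5348177 counts a library, and a second table of other values, the same counts divided by 1 constant per library. Symbols and positions came from GENCODE M21 and promoters from RefSeq (GRCm38.p6). The counts were tested in R 4.3.3 with edgeR 4.0.16 (TMM, filterByExpr, quasi-likelihood F test, all 9 libraries in 1 fit, 11196 genes), with p-values adjusted by Benjamini-Hochberg over all tested genes and a threshold of 0.05. The code was tested on simulated data. Intervals of log2 fold changes are 95% and unadjusted. Poisson and ratio intervals cover counting error only. The labels call the replicates biologically independent but tie none to an animal or culture, so p-values measure the spread between these samples; replicates differed by more than sampling noise.

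Tried as alternatives were DESeq2 1.42.0, limma-voom (limma 3.58.1), RLE size factors, no filter beyond 1 count, at least 1 CPM in 3 libraries, the compared libraries alone, a replicate block, limma on log2(x + 1) of the deposited normalized values, and leaving out each library. The 10 genes and the lists were chosen with earlier results of these data known, and 1 gene of the lists is not reported here. Named were the 10 genes, Runx2, from each list the genes that passed (up to 5 a comparison, by smallest p) or else its most abundant gene, and the 3 genes most correlated with Kmt2a and with Mllt1 (log2 CPM, prior count 2, mean of at least 10 CPM).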

Additional observations from a re-analysis of the deposited data

How the results depend on the processing

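Of the 17 alternatives, Kmt2a passed in 15 in each comparison with BM progenitor, Men1 in 12 (Runx2wt) and 9 (Runx2ko), and Aff1 in 11 and 2. In Runx2wt against BM progenitor, 1513 genes passed, against 2390 with DESeq2, 3679 in the compared libraries alone and 922 with a replicate block; leaving out 1 library gave 209 to 3256. Of the 10 genes 3 passed, 5 in the compared libraries alone (Mllt1 and Psip1 added), and 0 to 4 without 1 library. In Runx2ko against Runx2wt, 0 genes passed with edgeR, 46 with DESeq2, and 0 to 5 without 1 library. In Runx2ko against BM progenitor, 1924 passed, against 1262 in the compared libraries alone and 1120 with a replicate block, with 405 to 3311 without 1 library. Of the 10 genes 2 passed there, 1 (Kmt2a) with no filter, in the compared libraries alone or with a replicate block, and 0 to 5 without 1 library. Signs turned for some differences that had not passed, given here as log2 ranges over the fits that each left out 1 library. In Runx2wt against BM progenitor, Aff4 ran from -0.08 (without Runx2wt replicate 3; -0.07 without BM progenitor replicate 3) to 0.12. In Runx2ko against Runx2wt, Kmt2a ran from -0.29 to 0.07, Mllt1 from -0.29 to 0.43, Mllt3 from -0.20 to 1.2, Psip1 from -0.29 to 0.68, Ash2l from -0.23 to 0.12 and Larp7 from -0.15 to 0.22; Mllt1 was -0.04 with limma-voom. In Runx2ko against BM progenitor, Cdk9 ran from -0.07 to 0.18, Mllt3 from -1.19 to 0.20, Dot1l from -0.22 to 0.03 and Aff3 from -4.27 (without Runx2ko replicate 1) to 1.67; Aff3 was -2.47 with limma-voom, -1.64 with a replicate block and -1.93 on the authors' values. The cause was not tested. No pairing by replicate number was visible: deviations of same-numbered libraries correlated at -0.07 to 0.07 across genes. Libraries of different numbers were not set beside them, so a pairing is not excluded. The replicate block also lost Aff1 in Runx2wt (adjusted p = 0.0549) and Men1 in Runx2ko (0.0598). Of the 10 genes, depth limits Mllt3 (8 to 38 counts a library) and Mllt1 (18 to 99) most. Hexim2, of the lists, was lower than both in BM progenitor, at 1.27 to 1.62 CPM.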
